A study of Mus musculus with 12 samples.

Results

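The AP-1 and Egr immediate early factors are 10 genes of the 45859 in each deposited expression table: the Fos family (Fos, Fosb, Fosl1 and Fosl2), the Jun family (Jun, Junb and Jund) and the Egr family (Egr1, Egr2 and Egr3). They were taken by gene symbol, and each symbol was found. RNA-seq was performed on mouse lens capsules with their attached lens cells (LCs) after the fiber cells had been removed in a model of cataract surgery. Capsules were frozen at 0 h or at 24 h post cataract surgery (PCS). There were 4 conditions with 3 biological replicates each, and each library pooled 5 capsules.

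WT animals were C57BL/6. β8ITG-cKO animals, on a mixed C57BL/6, 129S1/Sv background, carried an Itgb8 allele with a floxed exon 4 and MLR10-Cre, which acts in every LC from the vesicle stage of lens development on. All were adults of 2 months, and both sexes were used. The groups thus differed in strain as well as in genotype, and the 2 cannot be told apart in any comparison between them. Values are FPKM (fragments per kilobase of transcript scaled to mapped fragments), and the sequencing depth behind them is unknown because no counts were used here.

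AP-1 is a dimer of bZIP proteins, usually a Fos with a Jun, that binds a short DNA element and alters transcription. Egr proteins are zinc finger factors that bind a GC-rich element. Most of these genes are transcribed within minutes of growth factors, stretch or wounding, without new protein synthesis, and their mRNAs decay quickly. The signal reaches Fos and Egr1 mainly through MAP kinases and the factors SRF, ELK and CREB. In epithelia they are among the earliest genes of a wound response.

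The whole-gene level of Itgb8, the targeted gene, was 7.26, 10.8 and 8.42 FPKM in WT and 6.83, 4.58 and 7.31 FPKM in β8ITG-cKO at 0 h, and 9.08, 8.38 and 9.58 FPKM against 9.28, 11.8 and 10.3 FPKM at 24 h. A whole-gene value includes exons outside the deleted one, so it does not check the genotype. The lens epithelial markers Pax6 (59.9 to 93.5 FPKM), Foxe3 (25.5 to 172 FPKM) and Cdh1 (37.7 to 98.3 FPKM) were detected in every library. Summed FPKM ranged from 446531 to 740140 per library, and the 10 highest genes held 36.0% to 49.6% of it. WT 0 h replicate 2 stood apart: Cryaa, the alpha A crystallin gene, was listed at 0 there, while each other library had 8385 FPKM or more, and all 20 retina markers were highest in it among the WT 0 h libraries. The summed retina markers were 194.7 to 1515 FPKM in WT 0 h, 246 to 449 in β8ITG-cKO 0 h, 102.8 to 202 in WT 24 h and 1132 to 1353 in β8ITG-cKO 24 h.

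The sequences just before the transcription start are shown for 5 of the members called higher over time in β8ITG-cKO, since the promoters of immediate early genes are known to hold elements for SRF, CREB and AP-1. Fosl2, also called higher, is not printed. Promoter windows came from RefSeq (GRCm38.p6), which held 11 windows for 7 of the 10 members (Fos, Fosb, Fosl2, Jun, Junb, Jund and Egr2). Each run is the 250 bases before the start, 5′ to 3′ on the gene's strand, with matched motifs in capitals. The motifs searched on both strands were TGACG (the core of a CRE, bound by CREB and ATF factors), TGACATCA (a variant AP-1 site), TGANTCA (the AP-1 site), GCGNGGGCG (the Egr element) and the CArG box bound by SRF. None of these motifs contains another.
Fos, chr12:85473640-85473889, plus strand: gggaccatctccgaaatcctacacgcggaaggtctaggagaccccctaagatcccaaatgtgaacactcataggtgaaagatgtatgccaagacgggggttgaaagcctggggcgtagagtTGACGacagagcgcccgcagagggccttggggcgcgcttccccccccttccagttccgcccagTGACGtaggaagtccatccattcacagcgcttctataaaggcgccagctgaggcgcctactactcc
Fosb, chr7:19310046-19310295, minus strand: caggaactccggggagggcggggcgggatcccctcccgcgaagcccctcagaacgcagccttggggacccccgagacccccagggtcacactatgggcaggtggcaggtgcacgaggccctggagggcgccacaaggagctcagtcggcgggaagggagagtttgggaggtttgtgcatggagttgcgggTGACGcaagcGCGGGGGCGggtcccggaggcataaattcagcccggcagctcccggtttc
Jun, chr4:95052223-95052472, minus strand: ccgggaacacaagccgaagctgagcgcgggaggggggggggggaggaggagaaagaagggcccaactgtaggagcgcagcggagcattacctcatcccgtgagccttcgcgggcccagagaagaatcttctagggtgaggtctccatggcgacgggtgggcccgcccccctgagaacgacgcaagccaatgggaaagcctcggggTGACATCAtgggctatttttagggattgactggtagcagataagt
Junb, chr8:84978749-84978998, minus strand: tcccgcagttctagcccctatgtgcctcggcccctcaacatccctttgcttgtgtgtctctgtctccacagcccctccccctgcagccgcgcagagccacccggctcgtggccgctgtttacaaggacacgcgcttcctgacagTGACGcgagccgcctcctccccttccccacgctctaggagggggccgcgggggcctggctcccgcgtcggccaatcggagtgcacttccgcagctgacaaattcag
Egr2, chr10:67537619-67537868, plus strand: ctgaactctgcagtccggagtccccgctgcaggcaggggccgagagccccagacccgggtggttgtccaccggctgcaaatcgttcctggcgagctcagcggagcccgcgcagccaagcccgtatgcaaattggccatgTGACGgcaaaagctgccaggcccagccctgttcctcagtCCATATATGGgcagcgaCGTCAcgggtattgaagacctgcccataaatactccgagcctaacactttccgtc

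TGACG was in the windows of 4 of the 7 members: at 2 places in Fos, ending 124 and 61 bases before the start, at 1 in Fosb and 1 in Junb, and on both strands in Egr2. It was in 17.8% of all 32851 windows of this length. A member was counted if any of its windows held the motif, and Egr2 had several windows. Counts of members and shares of windows are thus unlike measures. The CArG box was in Egr2 alone of the 7, ending 62 bases before the start in the window shown, against 1.47% of all windows. GCGNGGGCG was in Fosb and Fosl2 (4.70% of all windows), and TGACATCA was in Jun, 37 bases before the start (2.93%). TGANTCA, in 6.75% of all windows, was in none of the 7, and no motif was in Jund. A match describes these letters only, and binding was not measured. Bases further than 250 before the start were not searched, so a motif not found here may lie further upstream.

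At 0 h PCS, right after surgery, all 10 factors were lower in β8ITG-cKO than in WT capsules, and the 3 libraries of each genotype did not overlap for any of them. The largest difference was that of Fos, the prototype AP-1 subunit, with a WT mean 35.9-fold that of β8ITG-cKO. Of the 9 members tested, 7 were called lower in β8ITG-cKO (Fos, Fosl1, Fosl2, Jun, Junb, Jund and Egr1). Over all 14708 genes tested, 1.18% were called lower and 2.52% were called in either direction, and 2.75% were lower by the adjusted p alone, as were 8 of the 9 members. A gene was tested when it averaged 0.5 FPKM or more over the 6 libraries, which Fosb, Fosl1 and Egr3 did only through WT. A gene was called when its Benjamini-Hochberg adjusted p did not exceed 0.05 in a limma-trend fit of log2(FPKM + 1), its means differed by over 2-fold and over 2 FPKM, and it reached 2 FPKM in a group. Every WT library stood above every β8ITG-cKO library for 12.8% of all genes tested.

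Fos stood at 83.6, 29.6 and 14.0 FPKM in WT 0 h replicates 1 to 3 and at 1.08, 1.09 and 1.37 FPKM in β8ITG-cKO 0 h. The lowest WT library was thus far above the highest β8ITG-cKO library, while the WT libraries spread over a wide range and the β8ITG-cKO libraries hardly differed. On the log2(FPKM + 1) scale the difference in Fos was −3.96 ± 0.53 (SE, n = 3 per group, limma adjusted p = 0.00866). Fosb, a close relative of Fos, was at 3.87, 0.629 and 2.65 FPKM in WT libraries against 0.128, 0.0283 and 0.257 FPKM in β8ITG-cKO. Its difference of −1.44 ± 0.37 did not pass the test (limma adjusted p = 0.0587).

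Fosl1 encodes FRA1, a Fos relative without a strong activation domain that is itself an AP-1 target. It was at 7.01, 2.55 and 4.58 FPKM in WT 0 h, and in β8ITG-cKO 0 h at 0.581 and 0.0455 FPKM in replicates 2 and 3 and listed at 0 in replicate 1. The difference was −2.20 ± 0.31 (limma adjusted p = 0.0110). In the files Fosl1 (chr19:5447698-5457563, mm10) shares its locus with Ccdc85b, whose WT 0 h libraries (9.04 to 12.7 FPKM) also lay above those of β8ITG-cKO 0 h (4.15 to 5.19 FPKM), and reads shared between the 2 cannot be told apart here. Fosl2, which encodes FRA2, was at 25.1, 13.4 and 13.5 FPKM in WT libraries against 7.49, 7.95 and 7.46 FPKM in β8ITG-cKO. Its difference of −1.03 ± 0.22 (limma adjusted p = 0.0362) was the smallest of the 7 called.

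Jun, the founding Jun subunit, was at 74.4, 51.4 and 23.0 FPKM in WT 0 h and at 9.93, 10.2 and 8.98 FPKM in β8ITG-cKO 0 h, a difference of −2.09 ± 0.36 (limma adjusted p = 0.0197). Junb, a Jun that is often less active than c-Jun itself, was at 31.2, 23.8 and 8.98 FPKM in WT libraries against 2.89, 2.10 and 2.50 FPKM in β8ITG-cKO, a difference of −2.52 ± 0.38 (limma adjusted p = 0.0144). For both genes WT replicate 3 was the lowest of its group yet above each β8ITG-cKO library. Jund, whose mRNA is present in most resting cells, differed in its pattern. It was at 81.4, 75.8 and 67.9 FPKM in WT libraries against 29.5, 27.9 and 27.8 FPKM in β8ITG-cKO, so both groups were tight. The difference of −1.37 ± 0.10 had the lowest adjusted p of the 10 genes (limma, 0.000905), although its 2.64-fold size was among the smaller ones.

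Egr1, induced by the same kinases as Fos, was at 61.9, 42.4 and 8.96 FPKM in WT 0 h and at 3.15, 2.78 and 2.93 FPKM in β8ITG-cKO 0 h. The means differed 12.8-fold, or by −2.93 ± 0.59 on the log2 scale (limma adjusted p = 0.0290). Egr2 and Egr3, relatives that Egr1-inducing signals also switch on, were low throughout. Egr2 was at 1.75, 0.263 and 0.478 FPKM in WT, at 0.0825 and 0.124 FPKM in β8ITG-cKO replicates 1 and 3, and listed at 0 in replicate 2. With a mean under 0.5 FPKM over these 6 libraries it was not tested. Egr3 was at 1.53, 0.569 and 0.831 FPKM in WT libraries against 0.137, 0.00870 and 0.0285 FPKM in β8ITG-cKO. The Egr3 difference of −0.87 ± 0.21 passed the test (limma adjusted p = 0.0477) but fell short of the level a call needs. Egr3 was tested only because its WT mean was 0.976 FPKM, against 0.0582 FPKM in β8ITG-cKO. With 1 library left out, its limma adjusted p was above 0.05 in 3 of the 4 fits that tested it (up to 0.157). Egr2 shares its locus in the files (chr10:67496359-67548955, mm10) with Ado and 3 predicted genes. Ado was between 3.10 and 4.44 FPKM in all 6 libraries at 0 h, with overlapping groups.

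The number of calls depended on the filter and on single libraries. Without the filter on low values, 28281 genes were tested and Jund alone of the 10 was called; without 1 of the β8ITG-cKO replicates, 4 (replicate 1), 3 (replicate 2) or 2 (replicate 3) members were called, and without WT replicate 1, 5 were. Without WT replicate 2 or 3, 7 were called. Genes called lower over all those tested numbered 173 in the main fit and 52 without the filter. They numbered 133, 77 and 52 without β8ITG-cKO replicates 1 to 3, and 91, 159 and 205 without WT replicates 1 to 3. Fos and Jund kept a limma adjusted p of at most 0.0446 and 0.0118 in the 6 fits that left out 1 library. That of Egr1 was above 0.05 in 5 of the 6 (up to 0.104). For Jun and Fosl2 it was above 0.05 in 3 of 6 each, for Junb in 2 and for Fosl1 in 1.

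**Figure D1:**
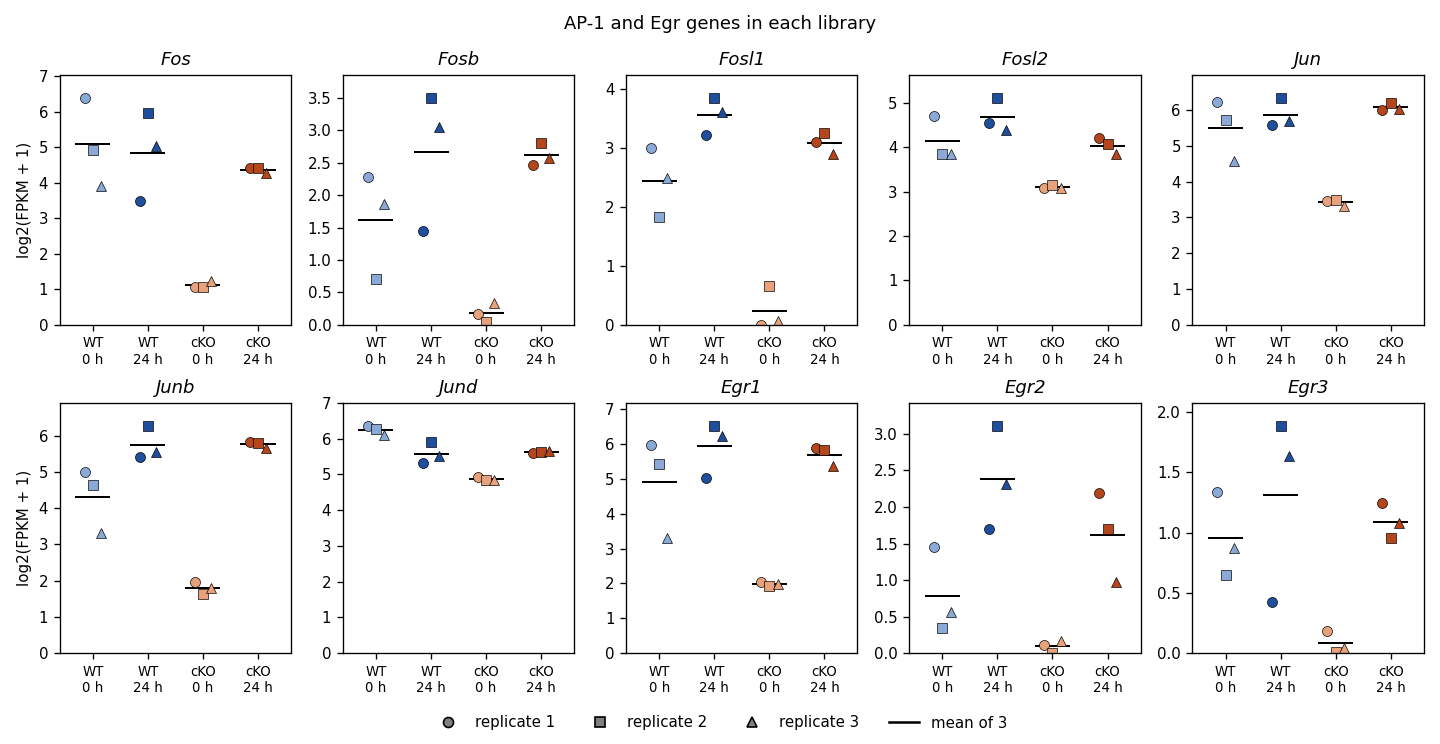
Level of each of the 10 genes in every library, as log2(FPKM + 1) on the vertical axis (each panel has its own scale), by condition on the horizontal axis, where cKO is β8ITG-cKO. Symbols are replicates and bars are means of 3. The β8ITG-cKO 0 h libraries are the lowest 3 in all 10 panels, and Fos spans 14.0 to 83.6 FPKM in WT 0 h.

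The 3 β8ITG-cKO 0 h libraries were below the other 9 libraries for all 10 members, a pattern held by 5.67% of the 15262 genes averaging 0.5 FPKM or more. The mean of log2(FPKM + 1) over the 10 genes was 1.68 to 1.70 in the β8ITG-cKO 0 h libraries. It was 3.09 to 4.28 in WT 0 h, 3.62 to 4.85 in WT 24 h and 3.83 to 4.10 in β8ITG-cKO 24 h. In order of condition means, β8ITG-cKO 0 h was lowest for each gene, while the order of the other 3 differed between genes. Jund alone had its WT 0 h libraries above all others.

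The WT libraries also differed from each other. WT 0 h replicate 1 was the highest of its 3 libraries for 10 of 10 members (27.3% of all genes), and WT 24 h replicate 2 was the highest of its 3 for 10 of 10 (44.3% of all genes). The median SD between replicates, in log2 units, was 0.706 for the members in WT 0 h against 0.186 over all genes, and 7 of the 10 exceeded the 95th percentile of all genes (0.561). In WT 24 h it was 0.587 against 0.235. In β8ITG-cKO 0 h it was 0.0912 against 0.150, with no member above the 95th percentile, and in β8ITG-cKO 24 h it was 0.161 against 0.157. The median member thus varied more than the median gene in both WT conditions, less in β8ITG-cKO 0 h and about as much in β8ITG-cKO 24 h. The log2(FPKM + 1) scale flattens values near 0. In β8ITG-cKO 0 h Fosb and Egr3 spanned 9.11-fold and 15.8-fold at SDs of 0.145 and 0.0929. For Fos, Fosl2, Jun, Junb, Jund and Egr1, at higher levels there, the SD was 0.107, 0.0459, 0.0894, 0.166, 0.0481 and 0.0678.

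Red blood cell markers moved with these genes. The summed FPKM of the 6 markers was 152.6, 73.7 and 68.0 in WT 0 h, 36.0, 219.7 and 170.2 in WT 24 h, 15.8, 6.52 and 11.7 in β8ITG-cKO 0 h and 195.1, 174.5 and 87.4 in β8ITG-cKO 24 h. The β8ITG-cKO 0 h libraries were the lowest 3 here too, and WT 0 h replicate 1 and WT 24 h replicate 2 were the highest of their groups. Nearly all of the sum was globin mRNA (Hba-a1, Hba-a2, Hbb-bs and Hbb-bt), and the band 3 gene Slc4a1 was listed at 0 in 10 of the 12 libraries. The pigment cell markers of iris and ciliary body summed to 109.4, 50.7 and 38.0 FPKM in WT 0 h and 32.3 to 37.7 FPKM in β8ITG-cKO 0 h. Macrophage markers summed to 12.5 to 23.6 FPKM in WT 0 h and 11.8 to 17.5 FPKM in β8ITG-cKO 0 h, with 7 of 12 at a mean of 0.5 FPKM or more in each. At 24 h they summed to 46.7 to 64.6 FPKM in WT and 41.9 to 69.6 FPKM in β8ITG-cKO. Over time 3 and 5 of 11 tested were called higher, against 10.3% and 11.3% of all genes tested. The 10 neutrophil markers summed to at most 1.41 FPKM in each 0 h library, and at 24 h to 45.5 to 64.5 FPKM in WT and 11.99 to 34.8 FPKM in β8ITG-cKO, with Mpo, Elane and Ly6g at 0 in all libraries. Lens fiber markers were called lower at 24 h in 12 of 13 tested in WT and 13 of 13 in β8ITG-cKO. Over all genes tested 593 of 15146 and 575 of 15237 were called lower. The sum of the fiber markers was 32614 to 48399 FPKM in WT 0 h, 11283 to 16113 FPKM in WT 24 h, 39979 to 46606 FPKM in β8ITG-cKO 0 h and 7599 to 9939 FPKM in β8ITG-cKO 24 h. Corneal epithelial markers summed to 543 to 924 FPKM in β8ITG-cKO 0 h and 215 to 276 FPKM in WT 0 h, nearly all of it Aldh3a1 (means of 734 and 239.9 FPKM), the 1 called of the 4 tested; Krt5 lay the other way (0.277 and 1.39 FPKM). The part of these cells in the results was not tested, and in such bulk samples a change in cell number cannot be told apart from a change in RNA per cell.

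**Figure D2:**
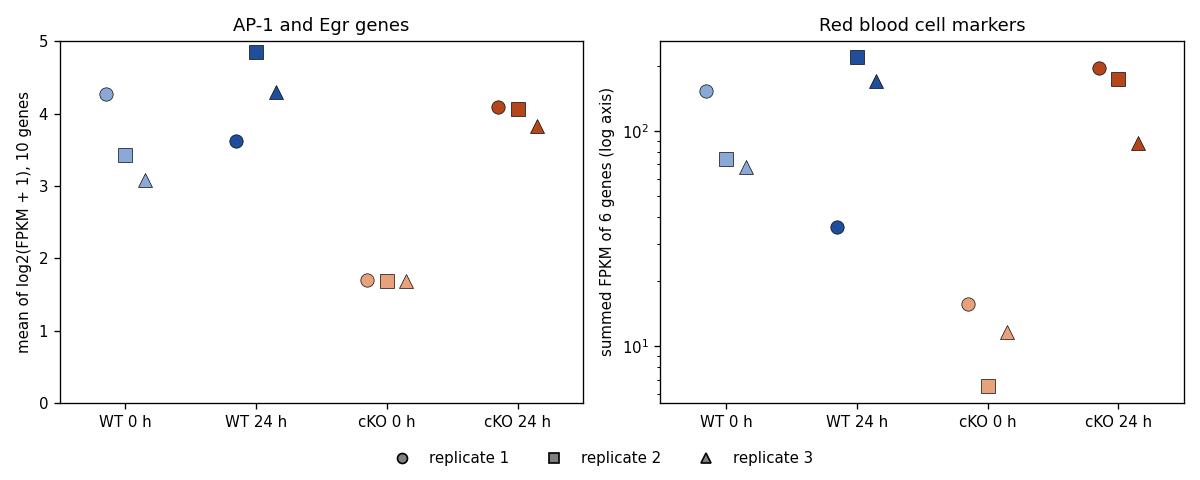
Left, mean of log2(FPKM + 1) over the 10 AP-1 and Egr genes in each library; right, summed FPKM of 6 red blood cell markers on a log axis, both by condition (cKO is β8ITG-cKO). Symbols are replicates 1 to 3. In both panels the β8ITG-cKO 0 h libraries are lowest, at 1.68 to 1.70 on the left and 6.52 to 15.8 FPKM on the right.

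From 0 h to 24 h PCS, 8 of the 10 members were called higher in β8ITG-cKO capsules, where 11.3% of all genes tested were called higher, and the groups did not overlap for any of the 10 (24 h was above for 42.9% of all genes). The largest rises were those of Junb, Egr1 and Fos, of 3.96 ± 0.11, 3.71 ± 0.15 and 3.24 ± 0.11 in log2 units. Junb reached 56.4, 54.4 and 49.4 FPKM at 24 h. Egr1 reached 58.0, 56.0 and 40.1 FPKM, and Fos reached 20.2, 20.3 and 18.3 FPKM. Jun rose to 63.5, 72.2 and 64.3 FPKM, by 2.66 ± 0.10. The limma adjusted p of these 4 genes was between 1.85e-06 and 4.51e-06, and all 24 h libraries stood well above the 0 h libraries.

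The other Fos members rose as well. Fosl1 was at 7.52, 8.47 and 6.44 FPKM at 24 h in β8ITG-cKO, a rise of 2.83 ± 0.20. Fosb was at 4.52, 6.01 and 4.96 FPKM, a rise of 2.43 ± 0.15, and Fosl2 was at 17.5, 15.8 and 13.4 FPKM, a rise of 0.93 ± 0.11. Egr2, at 3.59, 2.24 and 0.957 FPKM, rose by 1.53 ± 0.29 with the widest spread of the 10. The largest limma adjusted p of these called genes was 0.00370. Fosb, Fosl1, Egr2 and Egr3 met the filter on low values only through their 24 h libraries. Egr3 (1.37, 0.934 and 1.11 FPKM) and Jund (47.8, 48.7 and 49.7 FPKM) passed the test, at limma adjusted p of 0.00103 and 0.000277 (35.4% of all genes were higher by the adjusted p alone), but missed the level or the fold that a call needs.

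In WT capsules 3 of the 10 were called higher at 24 h than at 0 h, where 10.3% of all genes tested were: Fosl1, Junb and Egr2. Fosl1 was at 8.29, 13.4 and 11.2 FPKM at 24 h and rose by 1.12 ± 0.30 (limma adjusted p = 0.0285). Junb was at 41.6, 76.8 and 45.9 FPKM and rose by 1.43 ± 0.43 (limma adjusted p = 0.0408). Junb is also on a list of fibrosis genes that the study drew from these libraries, so its rise is not independent evidence for that list. Egr2 was at 2.26, 7.65 and 3.97 FPKM and rose by 1.59 ± 0.41 (limma adjusted p = 0.0235). The 24 h libraries lay above all 0 h libraries for these 3, as for 31.3% of all genes.

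Jund fell in WT, to 38.7, 59.6 and 44.4 FPKM at 24 h, by 0.67 on the log2 scale (SE 0.18, limma adjusted p = 0.0308), and its 1.58-fold change was too small for a call (8.81% of all genes were lower by the adjusted p alone). The same gene rose in β8ITG-cKO, and its groups did not overlap in either genotype. With 1 library left out, the fall in WT had a limma adjusted p above 0.05 in 5 of 6 fits (up to 0.115). The rise in β8ITG-cKO had one in 0 of 6. Fos, at 10.2, 61.7 and 31.7 FPKM in WT 24 h, overlapped with WT 0 h (difference −0.25, 95% interval −1.98 to 1.47). Jun, at 46.9, 80.7 and 50.7 FPKM, overlapped too (0.36, −0.58 to 1.31), as did Egr1 at 31.9, 91.2 and 74.0 FPKM (1.02, −0.55 to 2.59). These intervals are wide, so a change of 2-fold in either direction in Fos was not detectable with 3 such libraries. Fosb (1.72, 10.4 and 7.27 FPKM), Fosl2 (22.5, 33.9 and 19.9 FPKM) and Egr3 (0.338, 2.70 and 2.11 FPKM) also overlapped between the times.

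The 3 calls in WT were lost without WT 0 h replicate 2 or 3 or WT 24 h replicate 2, and without the filter on low values (0 of 10 called), and 1 remained without WT 24 h replicate 3. Over all genes 1501, 1314, 1171 and 1276 were called higher in the 4 fits with 0 members called, against 1566 in the main fit. With the libraries rescaled to the same median, 1 was called in WT, and the 8 called in β8ITG-cKO became 6. That rescaling moved the median change of all genes over time from 0.16 to −0.05 in WT and from 0.23 to −0.00 in β8ITG-cKO, and the calls over all genes from 1566 higher and 593 lower to 982 and 961 in WT, and from 1719 and 575 to 1172 and 877 in β8ITG-cKO.

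**Figure D3:**
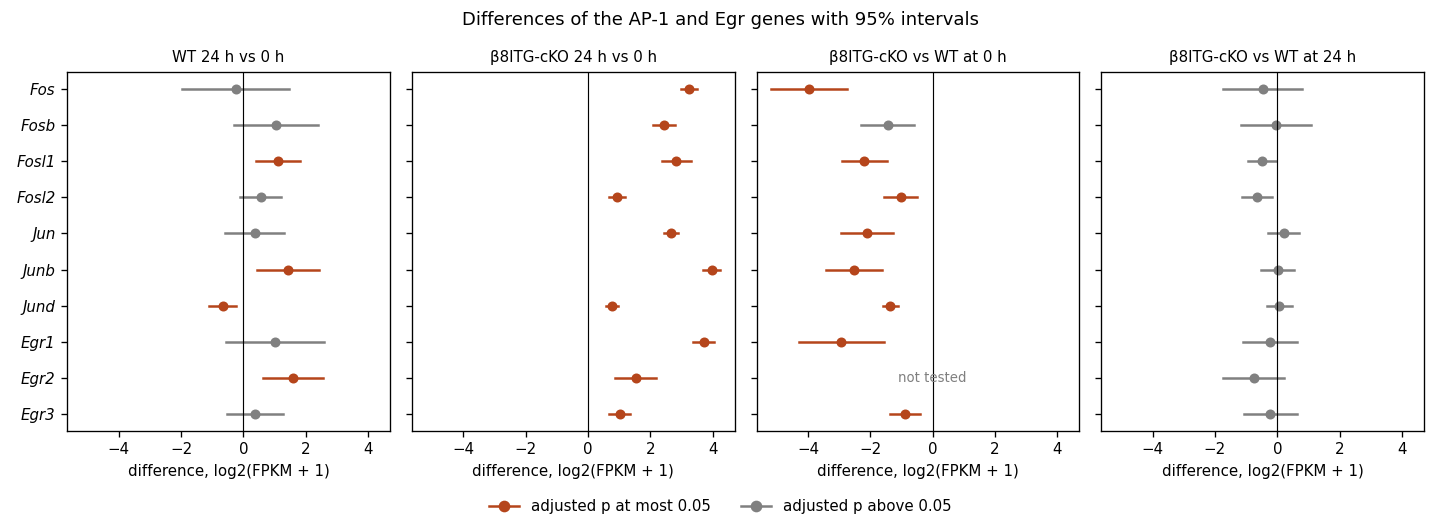
Difference of each gene in 4 comparisons on the log2(FPKM + 1) scale (horizontal axis), from limma with 3 libraries per group. Points are estimates, bars are 95% intervals, and colour marks those with adjusted p up to 0.05. The β8ITG-cKO panel over time holds the narrowest intervals, and the Fos interval in WT over time runs from −1.98 to 1.47.

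The change over time differed between the genotypes for 5 of the 10 members in a fit of genotype by time over all 12 libraries, each with the larger rise in β8ITG-cKO, where 6.83% of all 15262 genes passed in that direction. The difference of the changes was 3.49 ± 0.86 for Fos (limma adjusted p = 0.0278), 2.53 ± 0.50 for Junb (adjusted p = 0.0118) and 2.29 ± 0.47 for Jun (adjusted p = 0.0131). It was 1.71 ± 0.40 for Fosl1 and 1.42 ± 0.20 for Jund, with limma adjusted p of 0.0221 and 0.00465. With 1 library left out, the limma adjusted p for Fos was above 0.05 in 6 of 12 fits (up to 0.0667). For Fosl1 it was above 0.05 in 2 of 12 (up to 0.0585), and for Jun, Junb and Jund in 0 of 12. For Egr1 it was 2.69 ± 0.79 and missed the threshold (limma adjusted p = 0.0551). Fosl2 (0.38), Egr2 (−0.06) and Egr3 (0.65) had 95% intervals that included 0, as had Fosb (1.39, −0.08 to 2.86). This contrast and the comparison at 0 h share the same 6 libraries.

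At 24 h PCS 0 of the 10 members were called between the genotypes by limma (3.66% of all genes tested were called), and 2 had an unadjusted p under 0.05. Junb and Jund had the closest means, at 54.8 and 53.4 FPKM and at 47.6 and 48.7 FPKM in WT and β8ITG-cKO. The 95% interval of the difference was −0.52 to 0.55 for Junb and −0.35 to 0.46 for Jund, so a 2-fold difference was outside it. For Fos (−1.73 to 0.80), Egr1 (−1.11 to 0.63), Fosb (−1.17 to 1.07) and Egr2 (−1.73 to 0.22) a 2-fold difference was inside it. Fosl2 was the only member whose groups did not overlap (WT above, as for 9% of all genes), at −0.65 ± 0.21 and a limma adjusted p of 0.134. Fosl1, at −0.48 ± 0.19, had a limma adjusted p of 0.211.

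Genes upstream and downstream of these factors were read in 5 lists. Of 18 tested activators upstream (SRF, ELK and CREB factors and MAP kinases), 0 were called between the genotypes at 0 h by limma. That is near the share over all genes tested, of which 2.52% were called. One activator (Map2k7, a kinase above JNK) had an unadjusted p under 0.05 and also passed the adjusted threshold. The median difference was −0.07 against 0.02 over all genes.

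Of 31 tested other immediate early genes, 16 were called lower in β8ITG-cKO at 0 h and 0 higher, with a median of −1.50. Over all genes tested, 1.18% were called lower. They included Plk2, a polo-like kinase, with a mean of 6.85 FPKM in WT against 0.605 FPKM in β8ITG-cKO (−2.29 ± 0.17), and Klf4, a Krüppel-like factor of epithelia, at 19.4 and 3.24 FPKM (−2.23 ± 0.23). Cyr61, a matricellular protein gene, was at 37.7 and 7.44 FPKM (−2.12 ± 0.26), and Per1, a clock gene that stress also induces, was at 24.3 and 5.77 FPKM (−1.90 ± 0.19). Myc, a transcription factor of cell growth, was at 11.7, 5.83 and 3.03 FPKM in WT libraries against 1.21, 0.598 and 1.09 FPKM in β8ITG-cKO (−1.85 ± 0.37). Plk2 and Klf4 were named after their values were seen. In WT 0 h, 21 of all 34 listed genes were highest in replicate 1, and in WT 24 h 24 were highest in replicate 2.

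Feedback inhibitors are genes that immediate early signals induce and that end those signals, such as the dual specificity phosphatases (Dusp) and the mRNA decay factor Zfp36. At 0 h, 5 of 16 were called lower in β8ITG-cKO and 0 higher, against 1.18% of all genes tested called lower. Dusp5, a nuclear phosphatase of ERK, was at 38.2, 14.5 and 20.6 FPKM in WT libraries against 1.63, 1.99 and 1.29 FPKM in β8ITG-cKO (−3.17 ± 0.31, limma adjusted p = 0.00269). Zfp36 was at 31.8, 22.9 and 9.30 FPKM in WT libraries against 1.75, 1.24 and 1.55 FPKM in β8ITG-cKO. Both had WT libraries far above those of β8ITG-cKO, with WT replicate 1 highest.

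Of the 10 tested other bZIP partners, 2 were called lower at 0 h, against 1.18% of all genes tested. Atf3, a stress-induced partner of Jun, was at 46.7, 28.6 and 8.99 FPKM in WT libraries against 0.385, 0.123 and 0.173 FPKM in β8ITG-cKO (−4.30 ± 0.49, limma adjusted p = 0.00457). Maff, a small Maf named after its values were seen, was at 17.6, 9.26 and 12.5 FPKM in WT libraries against 1.82, 1.97 and 1.93 FPKM in β8ITG-cKO. In WT 24 h Atf3 was at 3.58, 11.1 and 10.1 FPKM, with replicate 1 lowest as for Fos.

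Of 20 tested known AP-1 and Egr targets, 5 were called lower and 1 higher in β8ITG-cKO at 0 h. Over all 14708 genes tested, 173 were called lower and 198 higher. Ccl2, a monocyte chemokine, had the largest difference in any of the lists: 309.7, 189 and 105 FPKM in WT against 3.18, 6.87 and 3.73 FPKM in β8ITG-cKO (−5.10 ± 0.39, limma adjusted p = 0.000905). Timp1, an inhibitor of metalloproteinases, went the other way, at 1.64, 2.55 and 2.58 FPKM in WT and 18.4, 12.7 and 17.4 FPKM in β8ITG-cKO (2.40 ± 0.18, limma adjusted p = 0.000905). The targets called were thus not of 1 direction at 0 h, though the higher direction rests on Timp1 alone.

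**Figure D4:**
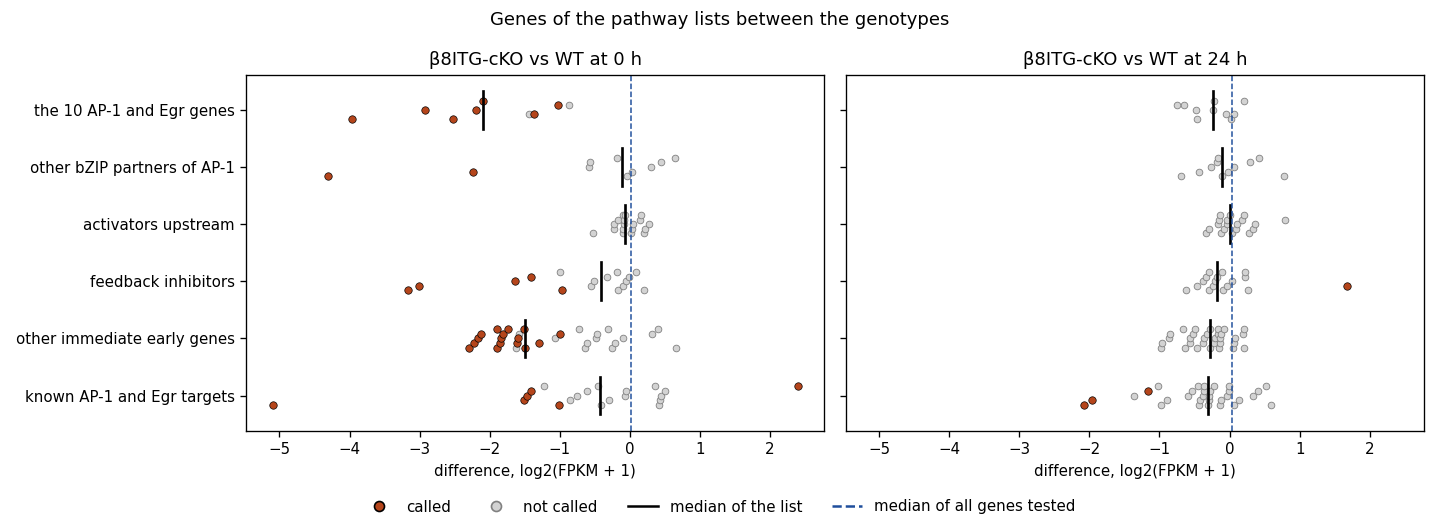
Difference between β8ITG-cKO and WT on the log2(FPKM + 1) scale (horizontal axis) for each tested gene of the members and of 5 pathway lists, at 0 h (left) and 24 h (right). Points are genes, filled where called, black bars are list medians and the dashed line is the median of all genes tested. At 0 h the other immediate early genes have a median of −1.50 and the activators upstream one of −0.07.

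Over time, 20 of 30 tested targets were called higher at 24 h and 0 lower in WT, and 21 of 28 were called higher and 1 lower in β8ITG-cKO. Over all genes tested, 10.3% were called higher in WT and 11.3% in β8ITG-cKO. Those called lower were 593 of 15146 and 575 of 15237. Plaur, the urokinase receptor, rose from 0.179 to 40.2 FPKM in WT and from 0.194 to 28.0 FPKM in β8ITG-cKO. Timp1 rose by 5.33 ± 0.21 in WT and by 2.50 ± 0.16 in β8ITG-cKO. Ccl2 rose by 5.20 ± 0.24 in β8ITG-cKO, while in WT its means were 201 FPKM at 0 h and 240 FPKM at 24 h with overlapping groups (0.38 ± 0.36, limma adjusted p = 0.460). Nqo1, a quinone reductase, fell in β8ITG-cKO from 5.40 to 2.47 FPKM.

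Of the other immediate early genes, 10 were called higher and 2 lower over time in WT, and 16 higher and 1 lower in β8ITG-cKO, of 31 tested in each. The 2 that fell in WT were Per1, from 24.3 to 8.80 FPKM, and Nr4a3, an orphan nuclear receptor, from 3.75 to 1.02 FPKM. In β8ITG-cKO Btg1, an antiproliferative gene, fell from 54.4 to 24.8 FPKM. Feedback inhibitors were called higher in 8 of 17 and 10 of 17, with 0 lower in either genotype. Of the bZIP partners 1 of 10 was called higher in WT, and in β8ITG-cKO 3 of 11 were higher and 1, the lens factor Maf (68.9 to 22.6 FPKM), was lower. Activators upstream were called in 3 of 19 in WT, including a fall of Map3k1, a kinase above JNK, from 22.1 to 11.0 FPKM, and in 2 of 18 in β8ITG-cKO. The 2 activators called higher in each genotype, and the 1 bZIP partner in WT, were near the shares over all genes (10.3% in WT and 11.3% in β8ITG-cKO).

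At 24 h, 3 of 31 tested targets were called lower and 1 of 17 feedback inhibitors higher in β8ITG-cKO. No activator upstream, other bZIP partner or other immediate early gene was called. Over all 15366 genes tested, 518 were called higher and 44 lower (3.66% in either direction). Dusp8, a phosphatase of JNK and p38, was higher in β8ITG-cKO (9.33 against 2.31 FPKM, 1.67 ± 0.22). Sprr1a, a cornified envelope protein gene, was lower (12.4 against 52.3 FPKM, −2.08 ± 0.31), as was Lgals3, a galectin (32.7 against 130.0 FPKM, −1.97 ± 0.18). Of the 31 tested other immediate early genes 0 were called by limma, 0 passed its adjusted threshold and 7 had an unadjusted p under 0.05, all of them lower in β8ITG-cKO.

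The genes most like 3 of the members were found by the root mean square difference of centred log2(FPKM + 1) over the 12 libraries, among 10880 genes averaging 2 FPKM or more. Those nearest to Fos were Zfp36 (0.457), Atf3 (0.551) and Hba-a2 (0.657), the last an alpha globin gene. Those nearest to Junb were Cyr61 (0.349), Egr1 (0.395) and Myc (0.455). Those nearest to Egr1 were Ccl7 (0.372), a chemokine gene next to Ccl2, then Junb (0.395) and Zfp36 (0.506). The measure describes likeness over these libraries, which share 4 conditions.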

How the data were processed

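The authors trimmed the reads with cutadapt 1.12, aligned them with TopHat2 2.1.0 to mm10 (GRCm38.p5) and quantified genes with Cuffdiff 2.2.1, per the labels. The deposited unit is FPKM per gene and library, in 4 tables that hold the same values for shared libraries. Whether counting used strand is not given in the sources used here. The tables' own means, fold changes, p-values and q-values were not used.

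Comparisons of 2 conditions used limma 3.58.1 (R 4.3.3) with an intensity trend on log2(FPKM + 1), leaving out genes averaging under 0.5 FPKM in the 6 libraries. Benjamini-Hochberg adjustment was over all genes tested. Fold changes on this scale understate those of low genes. Thresholds for calls followed the study's methods. Genotype by time was tested in 1 fit over 12 libraries. An exact permutation test of 3 against 3 cannot give a 2-sided p below 0.1 and was not used. In FPKM tables simulated with 200 genes changed 4-fold, between 84% and 90.5% were recovered. The changed genes were drawn from those averaging 2 FPKM or more. The simulated noise was independent, with the SD of each gene pooled over the 4 conditions. In WT 0 h 7 of the 10 members exceeded the 95th percentile of SD, so these rates do not give the power for the members. Depth per library is unknown, so counting error could not be given.

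The members and lists were chosen with earlier results of these data known. Besides the 10 members, the genes named were, in each comparison, up to 3 list genes called with the largest rise and up to 3 with the largest fall, and the 3 genes nearest to Fos, Junb and Egr1. Others are named as chosen after their values were seen. A gene that this rule names is not reported here. Alternatives changed the pseudocount, filter, scaling, fit, trend and replicate block, or left out 1 library. Corneal stroma markers summed to 7.68 to 26.8 FPKM and lens epithelial markers to 11772 to 43431 FPKM.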

Additional observations from a re-analysis of the deposited data

Results flagged for a closer look

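The change from 0 h to 24 h PCS differed between the genotypes, in the limma fit of genotype by time, for 5 of the 10 members. The rise in β8ITG-cKO minus that in WT was 3.49 log2 units for Fos, 1.71 for Fosl1, 2.29 for Jun, 2.53 for Junb and 1.42 for Jund. With 1 library left out, this difference did not pass in 6 of 12 fits for Fos and in 2 of 12 for Fosl1. Jund passed the test as a fall in WT and as a rise in β8ITG-cKO. The fall in WT did not pass in 5 of the 6 fits that left out 1 library, while the rise passed in all 6. Fos was at means of 42.4 and 34.5 FPKM at 0 h and 24 h in WT, a difference that did not pass, and rose in β8ITG-cKO.

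In the pathway lists the same difference was 4.83 for Ccl2, 4.59 for Atf3 and 2.62 for Zfp36, which rose more in β8ITG-cKO. It was −2.83 for Timp1, −1.56 for Lgals3 and −0.95 for Btg1, which rose less or fell more there. Ccl2, Atf3 and Zfp36 were also lower, and Timp1 higher, in β8ITG-cKO than in WT at 0 h, and these 0 h libraries enter both contrasts.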

How the results depend on the processing

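Over time in β8ITG-cKO each member tested kept its direction and an adjusted p on the same side of the threshold under each alternative run. At 0 h between the genotypes each tested member stayed lower in β8ITG-cKO under each alternative, but the number of members called fell from 7 to 1 without the filter on low values and ranged from 2 to 7 when 1 library was left out. The number called over time in WT fell from 3 to 0 without the filter, to 1 after rescaling to the same median and to 1 with the replicate block, and ranged from 0 to 3 when 1 library was left out. The number past the threshold in genotype by time fell from 5 to 3 without the filter, and ranged from 3 to 6 with 1 library left out. Leaving out 1 library gave 6 to 8 called over time in β8ITG-cKO and 0 at 24 h. Without the filter the genes tested at 0 h rose from 14708 to 28281, and the limma fit was made anew with them. Genes called lower at 0 h over all those tested also fell, from 173 to 52. With 1 library left out they ranged from 52 to 205. The cause of the losses was not tested.

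Same-numbered libraries did not deviate together (correlations of their deviations from −0.218 to 0.082 over 12 pairs). This does not settle whether the numbers pair the samples. With the replicate block 6 members were called at 0 h, 8 over time in β8ITG-cKO, 5 in genotype by time and 0 at 24 h.

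Reversals concerned differences that did not pass the test. At 24 h Fosb became 0.0072 with a pseudocount of 0.1, and Junb −0.052 and Jund −0.0092 after rescaling. Egr2 in genotype by time became 1.18 with a pseudocount of 0.1. With 1 library left out, the change over time in WT ranged from −0.84 to 0.42 for Fos and from −0.10 to 0.73 for Jun. The difference at 24 h ranged from −1.14 to 0.10 for Fos, −0.66 to 0.37 for Fosb, −0.15 to 0.28 for Junb, −0.077 to 0.23 for Jund, −0.69 to 0.057 for Egr1 and −0.67 to 0.063 for Egr3, and Egr2 in genotype by time ranged from −0.40 to 0.30. Depth is unknown, so counting error of the low genes could not be given.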
